A study of Mus musculus with 13 samples.

Results

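The genes described here are 5 that act in the formation of limb muscle: Pax3 and Lbx1, which mark muscle progenitors, and Myf5, Myod1 and Myog, which commit cells to muscle and start its differentiation. They were taken by their symbols from the table of 12880 genes measured in mouse limb buds, each symbol matching 1 gene. Limb muscle comes from cells that leave the somites and migrate into the limb bud, and these migrating cells carry the paired-box factor PAX3 and the homeobox factor LBX1. In the bud they switch on the basic helix-loop-helix (bHLH) factors MYF5 and MYOD1, and then myogenin, the product of Myog. Myogenin and its relatives bind the E-box motif as pairs with E proteins and drive the genes of the contractile apparatus.

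RNA-seq was done on 13 libraries from the limb buds of separate embryos, in 4 groups. The 3 controls of embryonic stage E11.5 were Sox9fl/- and the 4 mutants Sox9-/-, labelled Sox9null. The 3 controls of stage E12.5, a day later, were Sox9fl/fl and the 3 mutants Sox9fl/flPrx1CreER, labelled Sox9cKO. SOX9 is the transcription factor that cartilage formation depends on, and the study compared control and Sox9 mutant limb buds. All E11.5 animals carry at least 1 inactive Sox9 allele, and the E12.5 controls carry 2 floxed alleles, so age cannot be told apart from these differences in genotype. Prx1 drives the CreER recombinase in limb mesenchyme, a different lineage from the somite-derived muscle cells, with the time of its induction not given in the sources used here.

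Levels are normalized RPKM (reads scaled to the length of the gene and the depth of the library), and the table lists a gene when the mean of some group reaches 3 RPKM. Differences are log2 differences of RPKM + 1. They were tested with limma over all 13 libraries and called at a Benjamini-Hochberg adjusted p under 0.05 over all genes. By their correlation across genes the E11.5 libraries formed 2 sets, 4 libraries with controls 1 and 3 and Sox9null 3 and 4, and 3 libraries with control 2 and Sox9null 1 and 2. The r was at least 0.979 inside a set and at most 0.966 across them. Genes of the Y chromosome averaged at least 20.4 RPKM in control 1 and Sox9null 3 at E11.5 and in the 3 controls and Sox9cKO 3 at E12.5, and at most 0.077 RPKM elsewhere. The sex of the embryos was therefore unevenly spread over the E12.5 groups, and also over the 2 ages in controls. Sox9 itself was at 35.8 to 49.3 RPKM in E11.5 controls and 20.6 to 25.7 in Sox9null, and at 35.2 to 37.5 RPKM in E12.5 controls and 28.7 to 35.1 in Sox9cKO. Its log2 difference from controls was -0.76 in Sox9null (limma adjusted p = 0.0360) and -0.18 in Sox9cKO, where it was not called. A value over the whole gene can hold exons that were not deleted, and the source of the remaining Sox9 RNA was not tested. The hindlimb genes Tbx4 and Pitx1 were at 38.2 to 54.2 and 58.6 to 91.5 RPKM in the 13 libraries, and 7 of 7 limb mesenchyme markers were listed. In such whole-bud samples fewer cells of a type and less RNA per cell cannot be told apart.

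Between E11.5 and E12.5 the differentiation genes Myod1 and Myog rose. The progenitor gene Pax3 was lower at E12.5, but it is in the table only through its E11.5 groups, which fixes that direction, so its values are a description. In controls limma called 3 of the 5 genes (2 higher, 1 lower), where it called 21.7% of all genes (16.5% higher, 5.19% lower). In mutants it also called 3 of the 5 (2 higher, 1 lower), where it called 19.7% of all genes (14.5% higher, 5.23% lower). The 1 lower gene was Pax3 in both. With 5 genes these counts say little against such a background, and the sizes are given gene by gene. Between mutants and controls limma called none of the 5 at either age.

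**Figure D1:**
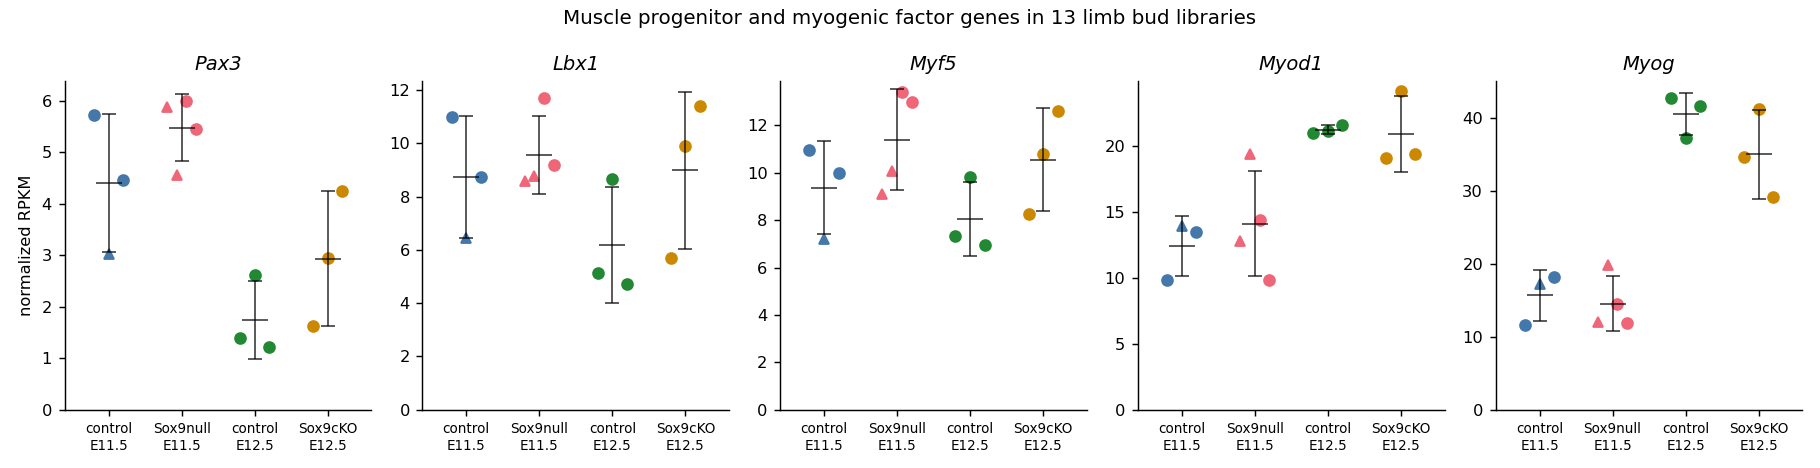
Normalized RPKM (y axes) of Pax3, Lbx1, Myf5, Myod1 and Myog for the 13 libraries, grouped along the x axes, with horizontal bars for the mean and error bars for the SD; triangles stand for control 2 and Sox9null 1 and 2 at E11.5. Pax3 was lowest in the E12.5 controls (1.22 to 2.62 RPKM), and Myog was at least 29.2 RPKM in each E12.5 library and at most 19.9 RPKM in each E11.5 library.

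Pax3 (ENSMUSG00000004872, GRCm38 chromosome 1, 78101267 to 78197134, minus strand, protein coding) encodes the factor that specifies migrating limb muscle progenitors. Its levels were 5.72, 3.03 and 4.46 RPKM in E11.5 controls 1 to 3, and 5.88, 4.56, 6.00 and 5.45 RPKM in Sox9null 1 to 4. At E12.5 they were 1.39, 2.62 and 1.22 RPKM in controls 1 to 3, and 1.62, 2.94 and 4.24 RPKM in Sox9cKO 1 to 3. Each E12.5 control lay below each E11.5 control, and each Sox9cKO library lay below each Sox9null library. The means were 4.40 ± 1.35 (SD, n = 3) and 1.74 ± 0.762 RPKM (SD, n = 3) in controls, 2.53-fold lower at E12.5, or -0.98 on the log2 scale (SE 0.263, adjusted p = 0.0212 by limma). In mutants the means were 5.47 ± 0.650 (SD, n = 4) and 2.93 ± 1.31 RPKM (SD, n = 3), 1.87-fold lower, with -0.77 on the log2 scale (SE 0.246, adjusted p = 0.0474 by limma).

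In order of its mean, Pax3 stood highest in Sox9null, then in the E11.5 controls, Sox9cKO and the E12.5 controls, and each neighbouring pair of groups in this order overlapped. Both E12.5 means are under 3 RPKM, so Pax3 is in the table through its E11.5 groups, and a gene listed that way had to be lower at E12.5. Its mean was above that of 10.9% of the listed genes in E11.5 controls and of 0.186% in E12.5 controls. The difference in controls was not called without E11.5 control 1 or 3 or without E12.5 control 1 or 3 (limma adjusted p over the 16 alternatives 0.00629 to 0.0828). In mutants it was not called in 11 of 17 alternatives, among them those without any of the 4 Sox9null libraries, without Sox9cKO 1 and without Sox9cKO 2 (limma adjusted p 0.0175 to 0.190). The difference kept its sign in each of these alternatives.

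Lbx1 (ENSMUSG00000025216, GRCm38 chromosome 19, 45232684 to 45235812, minus strand, protein coding) encodes a homeobox factor that migrating progenitors need to reach the limb. Its levels were 11.0, 6.46 and 8.75 RPKM in E11.5 controls 1 to 3, and 8.57, 8.77, 11.7 and 9.19 RPKM in Sox9null 1 to 4. At E12.5 they were 5.13, 8.68 and 4.73 RPKM in controls 1 to 3, and 5.70, 9.88 and 11.4 RPKM in Sox9cKO 1 to 3. Lbx1 was high and low in nearly the libraries in which Pax3 was: E11.5 control 2 and E12.5 controls 1 and 3 were low, and E12.5 control 2 and Sox9cKO 3 were the highest of their groups. The order of the means was Sox9null (9.56 ± 1.46, SD, n = 4), Sox9cKO (8.99 ± 2.95, SD, n = 3), E11.5 controls (8.74 ± 2.27, SD, n = 3) and E12.5 controls (6.18 ± 2.17 RPKM, SD, n = 3), with overlap between all neighbours. The log2 difference with age was -0.45 in controls (95% interval -1.01 to 0.11, limma adjusted p = 0.223) and -0.12 in mutants (-0.64 to 0.41, limma adjusted p = 0.751), and neither passed the test. With sex, read from the Y-linked genes, as a term, an alternative chosen after seeing the data, the difference in controls was -0.76 (limma adjusted p = 0.0494).

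Myf5 (ENSMUSG00000000435, GRCm38 chromosome 10, 107482908 to 107486134, minus strand, protein coding) encodes the bHLH factor that is the earliest to appear in the muscle lineage. Its levels were 11.0, 7.20 and 9.98 RPKM in E11.5 controls 1 to 3, and 9.10, 10.1, 13.4 and 13.0 RPKM in Sox9null 1 to 4. At E12.5 they were 7.35, 9.82 and 6.94 RPKM in controls 1 to 3, and 8.25, 10.8 and 12.6 RPKM in Sox9cKO 1 to 3. The 4 groups overlapped, and Sox9null 3 and 4 and Sox9cKO 3 had the highest values. The order of the means was Sox9null (11.4 ± 2.13, SD, n = 4), Sox9cKO (10.6 ± 2.19, SD, n = 3), E11.5 controls (9.38 ± 1.95, SD, n = 3) and E12.5 controls (8.04 ± 1.56 RPKM, SD, n = 3). The log2 difference with age was -0.19 in controls (95% interval -0.62 to 0.23, limma adjusted p = 0.495) and -0.10 in mutants (-0.50 to 0.29, limma adjusted p = 0.708). These intervals leave room for a fall or a small rise.

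Myod1 (ENSMUSG00000009471, GRCm38 chromosome 7, 46376474 to 46379099, plus strand, protein coding) encodes the bHLH factor that can turn other cell types into muscle. Its levels were 9.81, 13.9 and 13.4 RPKM in E11.5 controls 1 to 3, and 12.8, 19.4, 14.3 and 9.86 RPKM in Sox9null 1 to 4. At E12.5 they were 20.95, 21.1 and 21.6 RPKM in controls 1 to 3, and 19.0, 24.2 and 19.3 RPKM in Sox9cKO 1 to 3. The E12.5 controls lay within 1 RPKM of each other and above each E11.5 control. In mutants the ages overlapped, because Sox9null 2, at 19.4 RPKM, lay above Sox9cKO 1 and 3. The mean rose in controls from 12.4 ± 2.26 to 21.2 ± 0.316 RPKM (SD, n = 3 each), 1.71-fold, or 0.74 on the log2 scale (SE 0.192, adjusted p = 0.0183 by limma). In mutants it rose from 14.1 ± 3.99 (SD, n = 4) to 20.8 ± 2.88 RPKM (SD, n = 3), 1.48-fold, or 0.56 on the log2 scale (SE 0.180, adjusted p = 0.0473 by limma).

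The order of the group means of Myod1 was E12.5 controls, Sox9cKO, Sox9null and E11.5 controls, and each neighbouring pair overlapped. The rise in controls was not called without E11.5 control 1, E12.5 control 1 or E12.5 control 3 (limma adjusted p over the 16 alternatives 0.00569 to 0.0728). In mutants it was not called in 10 of 17 alternatives, among them those without Sox9null 1, 3 or 4 or without any of the 3 Sox9cKO libraries (limma adjusted p 0.0109 to 0.181). Centring the libraries on their medians gave 0.49 in mutants and also ended that call.

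Myog (ENSMUSG00000026459, GRCm38 chromosome 1, 134289989 to 134292548, plus strand, protein coding) encodes myogenin, the bHLH factor that muscle cells need to differentiate and fuse. Its levels were 11.6, 17.2 and 18.2 RPKM in E11.5 controls 1 to 3, and 12.0, 19.9, 14.6 and 11.8 RPKM in Sox9null 1 to 4. At E12.5 they were 42.7, 37.3 and 41.7 RPKM in controls 1 to 3, and 34.7, 41.3 and 29.2 RPKM in Sox9cKO 1 to 3. Each E12.5 library lay above each E11.5 library. The mean rose in controls from 15.7 ± 3.55 to 40.6 ± 2.90 RPKM (SD, n = 3 each), 2.59-fold, or 1.34 on the log2 scale (SE 0.199, adjusted p = 0.00133 by limma). In mutants it rose from 14.6 ± 3.75 (SD, n = 4) to 35.04 ± 6.06 RPKM (SD, n = 3), 2.41-fold, or 1.23 on the log2 scale (SE 0.186, adjusted p = 0.00301 by limma).

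The order of the group means of Myog was E12.5 controls, Sox9cKO, E11.5 controls and Sox9null. The E12.5 groups overlapped each other, as did the E11.5 groups, and Sox9cKO and the E11.5 controls, neighbours in this order, did not. Myog was called in all alternatives run, 16 in controls (limma adjusted p up to 0.00896) and 17 in mutants (up to 0.0213). Its mean stood above that of 52.0% of the listed genes in E11.5 controls and of 92.7% in E12.5 controls. Of all genes, 98.8% had a smaller absolute log2 difference with age in controls and 99.0% in mutants.

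Counted as groups that did not overlap, 3 of the 5 genes separated the ages in controls, Myod1 and Myog above (32.6% of all genes) and Pax3, with its direction fixed by the listing, below (13.3% of all genes). In mutants 2 did, Myog above (23.7% of all genes) and Pax3 below (9.75% of all genes). In the authors' deposited table, the adjusted p over the 4 groups was 0.00329 for Myog, 0.0363 for Pax3, 0.0547 for Myod1, 0.366 for Myf5 and 0.388 for Lbx1, so that Myog and Pax3 were at most 0.05 there.

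The promoter of Myog is printed because Myog rose in both age comparisons, and that of Myf5 is set beside it as a bHLH gene that was not called; RefSeq windows were at hand for these 2 of the 5 genes. Each window holds the 250 bases before the RefSeq start, read 5′ to 3′ on the strand of the gene in GRCm38.p6. Capitals mark matches to the E-box, CANNTG, which reads the same on both strands, and to the core of the motif of the MEF2 factors, CTANNNNTA, on either strand. The Myog window, chr1:134289754-134290003 on the plus strand, and the Myf5 window, chr10:107486135-107486384 on the minus strand, read:
Myog: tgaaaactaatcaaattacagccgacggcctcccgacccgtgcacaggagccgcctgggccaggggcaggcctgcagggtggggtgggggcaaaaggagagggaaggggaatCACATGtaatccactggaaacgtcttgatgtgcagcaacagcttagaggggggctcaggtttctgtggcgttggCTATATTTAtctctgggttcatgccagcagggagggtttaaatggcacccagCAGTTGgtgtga
Myf5: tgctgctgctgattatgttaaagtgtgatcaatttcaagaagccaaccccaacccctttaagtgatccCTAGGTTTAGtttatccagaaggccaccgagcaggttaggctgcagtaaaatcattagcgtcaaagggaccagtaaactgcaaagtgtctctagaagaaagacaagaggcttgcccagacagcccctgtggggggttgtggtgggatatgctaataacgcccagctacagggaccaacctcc

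The Myog window holds 2 E-boxes, CACATG and CAGTTG, which begin 138 and 12 bases before the start, and 1 MEF2 core, CTATATTTA, 64 bases before it. The GENCODE start of Myog, used for its coordinates above, lies 15 bases upstream of the RefSeq start, so CAGTTG is inside the gene by that annotation. The Myf5 window holds 0 E-boxes and a stretch, CTAGGTTTAG, in which the MEF2 core matches on each strand, 182 and 181 bases before the start. E-box letters were in 66.2% of 32851 promoter windows of this length and the MEF2 core in 19% of them. A match is a run of letters and not a measured binding site.

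Among themselves the genes varied as 2 sets, 1 of Pax3, Lbx1 and Myf5 and 1 of Myod1 and Myog. After the group means were taken off, the deviations of log2 values over the 13 libraries had a Pearson r of 0.95 between Pax3 and Lbx1, 0.90 between Lbx1 and Myf5, 0.84 between Pax3 and Myf5 and 0.90 between Myod1 and Myog. Between these sets of genes the r was below 0, from -0.53 for Pax3 and Myog to -0.12 for Lbx1 and Myod1. These values describe libraries that share their normalization and, at E11.5, the library sets. The set of 4 had higher means than the set of 3 for Pax3 (5.41 against 4.49 RPKM), Lbx1 (10.2 against 7.93) and Myf5 (11.8 against 8.79), and lower means for Myod1 (11.9 against 15.4) and Myog (14.1 against 16.3). The part of the library set in these deviations was not tested.

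Ratios of RPKM within a library, which compare the genes per length, are given as a description. Myog over Pax3 was 2.04 to 5.68 in E11.5 controls and 2.04 to 4.35 in Sox9null, against 14.2 to 34.2 in E12.5 controls and 6.88 to 21.4 in Sox9cKO. Myog over Myod1 was 1.19 to 1.36 and 0.938 to 1.201 at E11.5, against 1.77 to 2.04 and 1.51 to 1.82 at E12.5. Lbx1 over Pax3 was 1.93 to 2.13 and 1.46 to 1.95 at E11.5, against 3.32 to 3.88 and 2.69 to 3.51 at E12.5. In each of these 3 ratios the E12.5 libraries lay above the E11.5 libraries of both genotypes. Pax3, whose lower level at E12.5 was fixed by the listing, divides Myog over Pax3 and Lbx1 over Pax3. The listing therefore bears on the direction of those ratios, and their separation is no test. Myod1 over Myf5 was 0.895 to 1.94 and 0.759 to 1.92 at E11.5, against 2.15 to 3.11 in E12.5 controls and 1.53 to 2.31 in Sox9cKO, so that it separated the ages in controls and overlapped in mutants.

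**Figure D2:**
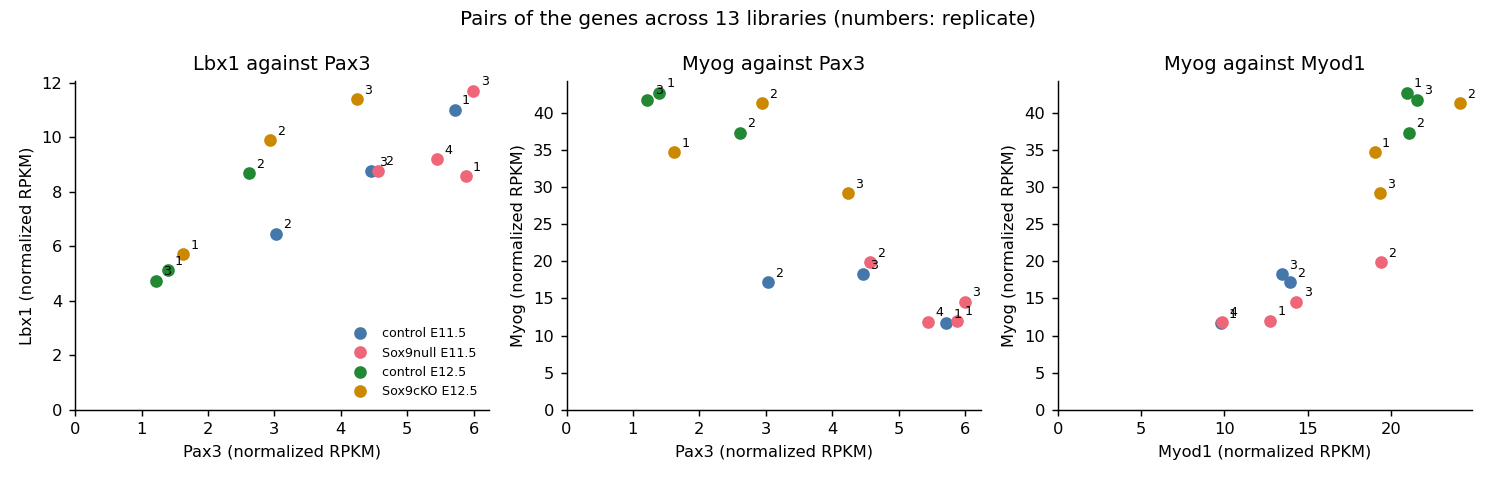
Normalized RPKM of Lbx1 against Pax3, Myog against Pax3 and Myog against Myod1 (x and y axes) in the 13 libraries, coloured by group and numbered by replicate. The highest Pax3 and the highest Lbx1 of each group are in the same library, and in the panels with Myog the E12.5 libraries (29.2 to 42.7 RPKM) stand apart from the E11.5 libraries (11.6 to 19.9 RPKM).

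Sox9null limb buds were compared with controls at E11.5 to see whether the muscle genes differed. By limma 0 of the 5 genes were called, with 0 at an unadjusted p under 0.05, where 0.0543% of all genes were called. The log2 differences were 0.29 for Pax3 (95% interval -0.25 to 0.82), 0.13 for Lbx1 (-0.39 to 0.66), 0.26 for Myf5 (-0.14 to 0.65), 0.15 for Myod1 (-0.24 to 0.54) and -0.11 for Myog (-0.51 to 0.30). The limma adjusted p was 1 for each, and the groups of each gene overlapped, where they did not for 2.47% of all genes. An exact two-sided permutation test of each gene gave p = 0.229, 0.457, 0.257, 0.543 and 0.714 in the same order, where 35 splits allow 0.0286 at the least. The intervals hold 0 and also rises of Pax3 of up to 0.82, so the data do not show that the levels were equal.

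Within the library sets the Sox9null minus control difference was 0.15 and 0.62 for Pax3 in the set of 4 and the set of 3, 0.07 and 0.37 for Lbx1 and 0.31 and 0.37 for Myf5. It was 0.05 and 0.17 for Myod1, and -0.14 and -0.15 for Myog. The set of 3 holds 1 control, whose Pax3, Lbx1 and Myf5 were the lowest of the E11.5 libraries. Without that control, replicate 2, the Lbx1 difference was -0.05.

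Sox9cKO limb buds were compared with controls at E12.5 in the same way. Again 0 of the 5 genes were called by limma and 0 had an unadjusted p under 0.05, where 0.194% of all genes were called. The log2 differences were 0.50 for Pax3 (95% interval -0.08 to 1.07), 0.47 for Lbx1 (-0.09 to 1.03), 0.35 for Myf5 (-0.07 to 0.77), -0.03 for Myod1 (-0.45 to 0.39) and -0.22 for Myog (-0.65 to 0.22). The limma adjusted p was 1 for each. The exact two-sided permutation p was 0.2 for Pax3, Lbx1, Myf5 and Myog and 1 for Myod1, where 3 against 3 allows 0.1 at the least. Over the 10 permutation tests at the 2 ages the lowest Benjamini-Hochberg adjusted p was 0.429.

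In each of the 5 genes the E12.5 groups overlapped, where they did not for 20% of all genes. Sox9cKO 1 was close to controls 1 and 3 in Pax3 (1.62 against 1.39 and 1.22 RPKM), while Sox9cKO 3 had the highest Pax3, Lbx1 and Myf5 of the E12.5 libraries and the lowest Myog. Without Sox9cKO 3 the differences moved to 0.26 for Pax3, 0.29 for Lbx1, 0.22 for Myf5 and -0.10 for Myog. With sex as a term, an alternative chosen after seeing the data, they were 0.80 for Pax3, 0.78 for Lbx1, 0.58 for Myf5, -0.14 for Myod1 and -0.41 for Myog, none of them called (lowest limma adjusted p = 0.248, for Lbx1). The sex term was fitted over the libraries of both ages. Within E12.5 it rests on Sox9cKO 3 against Sox9cKO 1 and 2, as all controls there had Y-linked expression. The difference between the effects at the 2 ages, E12.5 minus E11.5, was 0.21 for Pax3, 0.34 for Lbx1, 0.09 for Myf5, -0.18 for Myod1 and -0.11 for Myog. By limma 0 of the 5 were called for it, with 0 at an unadjusted p under 0.05, where 0.0311% of all genes were called.

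**Figure D3:**
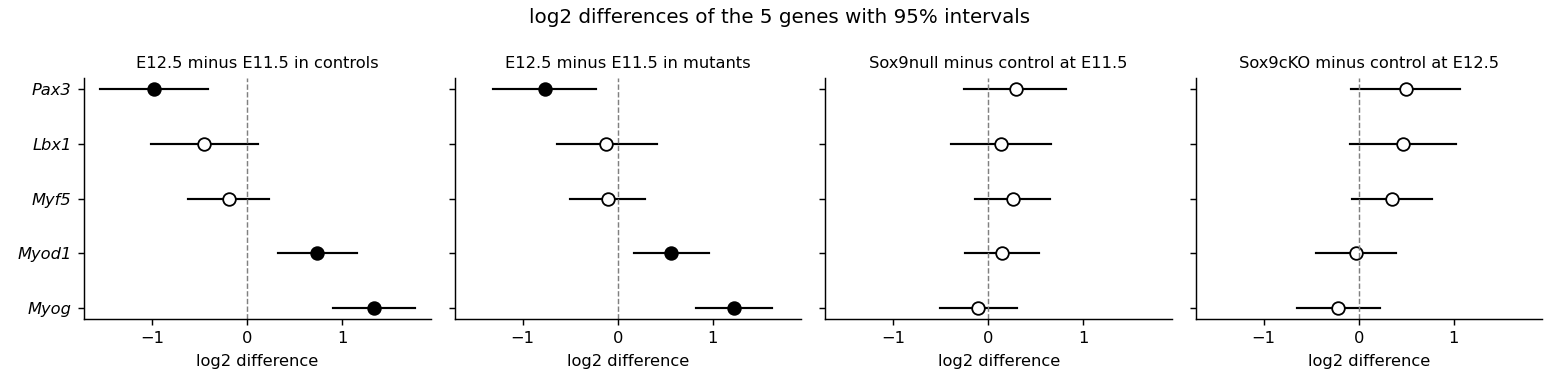
Log2 differences (x axes) of the 5 genes with 95% intervals in the 4 comparisons of groups; filled points passed limma's test at an adjusted p under 0.05 over all genes. Pax3, Myod1 and Myog are filled in both age comparisons, and no point is filled in the mutant against control comparisons.

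Genes upstream of the 5 and genes of progenitor migration were described as a list of 18 symbols, of which 15 were in the table (Pax7, Tcf21 and Dach2 were not). The highest were Ski (31.7 RPKM over the 13 libraries), a corepressor known for its effect on muscle mass, Cxcl12 (28.2 RPKM), a chemokine that guides migrating progenitors, and Six4 (24.9 RPKM), a homeobox activator of myogenic genes. With age in controls 3 of the 15 rose (Msc, Eya4 and Eya2), 0 fell and 12 did not pass, a share near the 16.5% of all genes called higher. Msc, a bHLH factor of muscle progenitors, rose from 6.71 ± 1.01 to 13.8 ± 0.990 RPKM (SD, n = 3 each), or in log2 terms 0.95 (limma adjusted p = 0.00166). Eya4 and Eya2, transcriptional coactivators of the muscle lineage, had log2 differences of 0.57 and 0.31 (limma adjusted p = 0.0133 and 0.0483). Eya4 was not called without E12.5 control 1, nor Eya2 without E11.5 control 2 or 3, without any of the 3 E12.5 controls, after median centring or quantile normalization or with sex as a term. In all, Eya2 kept its call in 7 of 16 alternatives.

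In mutants 2 of the 15 rose, 0 fell and 13 did not pass, a share near the 14.5% of all genes called higher. Msc rose by 0.77 on the log2 scale (limma adjusted p = 0.00544) and Meox2, a homeobox gene of limb muscle progenitors, by 0.21 (limma adjusted p = 0.0354). Meox2 was not called without Sox9null 1, 2 or 4 or without Sox9cKO 1 or 2, nor after median centring or quantile normalization or with only the compared libraries. The receptor gene Met, which progenitors need to leave the somite, had 15.1, 16.7, 14.2 and 16.0 RPKM in E11.5 controls, Sox9null, E12.5 controls and Sox9cKO, and its ligand gene Hgf 10.7, 10.7, 10.1 and 10.7 RPKM. Neither passed the test in any of the 4 comparisons, and the median log2 difference of the list with age was 0.09 in controls and 0.02 in mutants, beside 0.06 for all genes in each.

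For mutants against controls 0 of the 15 were called at either age. The median was 0.10 at E11.5 (2 at an unadjusted p under 0.05) and 0.08 at E12.5 (2 at an unadjusted p under 0.05), beside 0.01 for all genes at each age. Of all 12880 genes, 363 at E11.5 and 697 at E12.5 had such a p. Cxcl12 had means of 26.8 and 32.5 RPKM in E11.5 controls and Sox9null and 23.5 and 28.7 RPKM in E12.5 controls and Sox9cKO. Its log2 difference was 0.28 at each age, with limma adjusted p = 1 and 0.750.

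The bHLH partners and antagonists were a list of 12 symbols, of which 10 were in the table (Heyl and Mstn were not). The highest were Tcf3 (65.1 RPKM) and Tcf12 (64.5 RPKM), which encode E proteins that pair with MYOD1 and myogenin, and Id1 (59.4 RPKM), which encodes an inhibitor that holds E proteins away from them. With age in controls 2 rose (Fst and Id4), 2 fell (Tcf3 and Tcf12) and 6 did not pass, beside 16.5% of all genes called higher and 5.19% called lower. Fst, which encodes the myostatin antagonist follistatin, rose from 6.02 ± 1.27 to 14.3 ± 1.88 RPKM (SD, n = 3 each), or in log2 terms 1.13 (limma adjusted p = 7.06e-04). Id4 rose by 0.59 (limma adjusted p = 0.00713), while Tcf3 fell by 0.35 (limma adjusted p = 0.00129) and Tcf12 by 0.20 (limma adjusted p = 0.0212) on the log2 scale.

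In mutants Fst rose by 0.91 and Id4 by 0.67 (limma adjusted p = 0.00286 and 0.00468), Tcf3 fell by 0.26 (limma adjusted p = 0.00645), and 7 did not pass, beside 14.5% of all genes called higher and 5.23% called lower. Quantile normalization ended the calls of Tcf3 in both comparisons and that of Tcf12, and moved the Tcf12 difference in controls to 0.01. Tcf12 was also not called without E11.5 control 1, without E12.5 control 1 or 3 or with only the compared libraries. The median of the list with age was -0.09 in controls and -0.04 in mutants. For mutants against controls 0 of the 10 were called at either age (1 at an unadjusted p under 0.05 at each), with medians of -0.06 and 0.02. Of all 12880 genes, 363 at E11.5 and 697 at E12.5 had such a p.

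The products of muscle differentiation are genes of the contractile apparatus, of fusion and of the muscle endplate. Of 31 symbols 22 were in the table, with Mymx listed as Gm7325 and Mymk as Tmem8c. Of the 22, 12 had means under 3 RPKM in both E11.5 groups and are in the table through E12.5, so a gene listed that way had to be higher at E12.5. Of the 10 others 9 rose with age in controls and 9 in mutants, where 16.5% and 14.5% of all genes were called higher, and Ryr1 did not pass (log2 differences 0.12 and -0.05). The median of the 10 was 1.41 in controls and 1.03 in mutants, beside 0.06 for all genes in each. The 12 had means of 0.539 to 2.86 RPKM in E11.5 controls and 4.92 to 27.1 RPKM in E12.5 controls, which is a description and no test.

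The highest of the 22 were Actc1 (27.3 RPKM over the 13 libraries), the early sarcomeric actin, Mylpf (15.7 RPKM), a fast myosin light chain, and Tnnt1 (14.7 RPKM), the slow troponin T. Actc1 rose from 14.3 ± 8.61 to 51.3 ± 5.09 RPKM in controls (SD, n = 3 each), or in log2 terms 1.96 (limma adjusted p = 0.00892), and by 1.93 in mutants (limma adjusted p = 0.00984). Mylpf rose by 1.81 and 1.40 and Tnnt1 by 1.42 and 1.14 in controls and mutants. Acta1, the skeletal muscle actin and 1 of the 12, had 2.01 ± 1.46 RPKM in E11.5 and 27.1 ± 7.56 RPKM in E12.5 controls (SD, n = 3 each). Of the 10, the count called in mutants was 6 without Sox9cKO 1 and 5 without Sox9cKO 2, and Actc1 lost its call without Sox9cKO 2.

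At E11.5, 0 of the 22 products were called between Sox9null and controls, with 1 at an unadjusted p under 0.05. Of all 12880 genes 363 had such a p. The median of the products was -0.09 with 19 of 22 below 0, where 56.8% of all genes lay above 0. That median moved with single libraries. Without E11.5 controls 1, 2 and 3 in turn it was -0.34 (21 below 0), 0.03 (10 below 0) and -0.04 (15 below 0), and without Sox9null 2 it was -0.21 (21 below 0). At E12.5, 0 of the 22 were called between Sox9cKO and controls, with 13 at an unadjusted p under 0.05. Of all 12880 genes 697 had such a p. Of the 13 products, 10 were among the 12 listed through E12.5 and 3 among the 10 others. All 22 products lay below 0 there, where 56.8% of all genes lay above 0. Their median was -0.57 beside 0.01 for all genes, with -0.41 for the 10 and -0.75 for the 12. In 11 of the 22, 2 of them among the 10, each Sox9cKO library lay below each control, as in 8.5% of all genes. Actc1 had 51.3 ± 5.09 in controls and 39.4 ± 9.91 RPKM in Sox9cKO (SD, n = 3 each), or in log2 terms -0.40 with limma adjusted p = 1, and Mylpf 29.6 ± 5.65 and 20.8 ± 4.81 RPKM, a difference of -0.50 with limma adjusted p = 1.

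Sox9cKO 3 was the lowest library of its group in 22 of the 22 products. Acta1 was 4.52 RPKM in it against 16.6 and 17.2 RPKM in Sox9cKO 1 and 2, with controls from 18.4 to 32.1 RPKM. Without Sox9cKO 3 the median of the 22 was -0.39 with 21 below 0, and that of the 10 was -0.22. With sex as a term, an alternative chosen after seeing the data, the median was -0.87 and 1 of the 22 fell, the calcium-binding protein gene Casq2 (limma adjusted p = 0.0442). That term was fitted over the libraries of both ages, so it draws on the E11.5 libraries too. Within E12.5 it rests on Sox9cKO 3 against Sox9cKO 1 and 2, so there sex cannot be told apart from that single library. The 22 genes come from the same libraries and are not independent replicates.

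**Figure D4:**
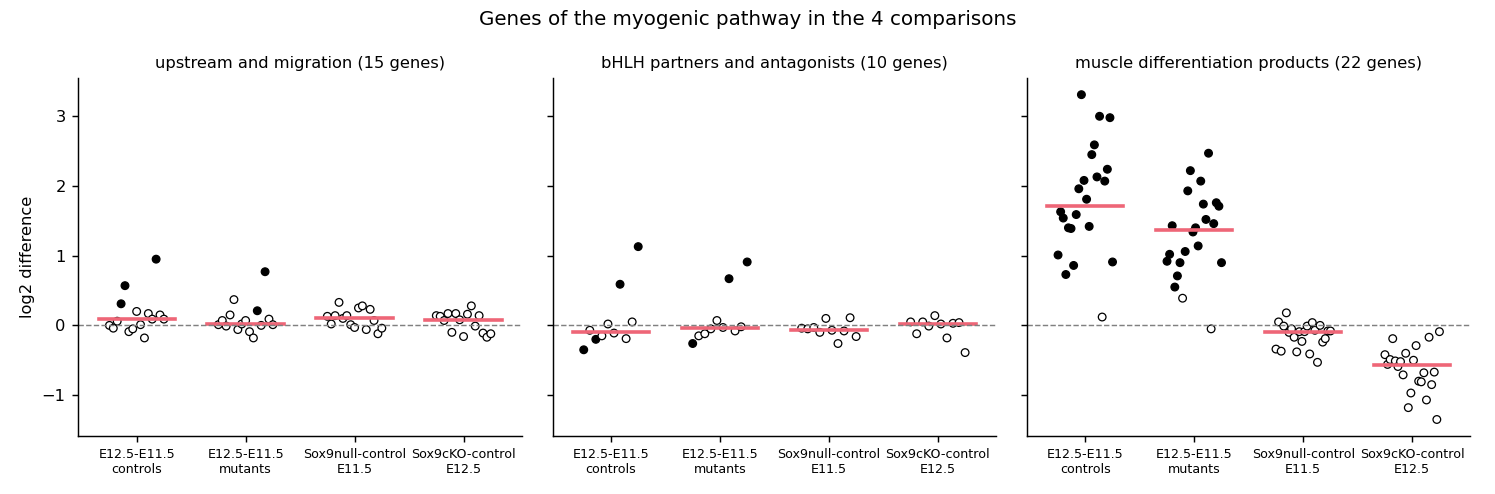
Log2 differences (y axis) of each gene of the 3 lists in the 4 comparisons (x axes), filled where limma called the gene, with a bar at the median of the list. The muscle differentiation products lie at a median of 1.72 and 1.37 in the age comparisons, where the listing fixed the direction of 12 of the 22, at -0.09 at E11.5 and at -0.57 at E12.5 for mutants against controls.

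Markers of other cell types were summed for each library. The Schwann cell and neural crest list, a lineage that also uses Pax3, is given by Sox10 and Erbb3. Their sum was 12.3 to 13.0 RPKM in E11.5 controls, 7.52 to 11.47 in Sox9null, 22.8 to 24.6 in E12.5 controls and 14.6 to 19.1 in Sox9cKO. Of 4 melanoblast markers Kit alone was in the table, at 8.91 to 13.0 RPKM. Neuron markers (5 of 8) summed to 30.3 to 38.3 RPKM at E11.5, 40.8 to 42.4 in E12.5 controls and 46.0 to 52.2 in Sox9cKO.

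Limb mesenchyme markers (7 of 7) summed to 284.9 to 319.0 RPKM over the 13 libraries, with 0 called for mutants against controls. Erythroid markers (6 of 6) summed to 534.1 to 561.8 RPKM in E12.5 controls and 707.0 to 880.1 RPKM in Sox9cKO. Markers of muscle connective tissue and tendon (6 of 7) summed to 187.9 to 198.8 and 169.5 to 185.0 RPKM in the same groups. That sum holds Tcf4, which is also in the list of bHLH partners, so it is not of connective tissue genes alone. Tcf4 was at 33.0 to 36.6 and 30.7 to 33.3 RPKM in these groups. Surface ectoderm markers (6 of 6) summed to 121.7 to 133.0 and 102.0 to 120.3 RPKM there, and cartilage markers (5 of 5, Sox9 among them) to 148.3 to 188.8 and 100.5 to 127.3 RPKM. The Schwann cell, connective tissue (with Tcf4), ectoderm and cartilage sums were thus lower in Sox9cKO without overlap. Differentiating muscle markers (10 of 11) summed to 199.1 to 276.7 RPKM in E12.5 controls and 113.1 to 201.1 RPKM in Sox9cKO, with overlap. The sums of myoblast markers (54.3 to 57.8 and 47.6 to 59.9 RPKM) and muscle progenitor markers (83.5 to 99.8 and 87.8 to 102.2 RPKM) overlapped too. As single genes, 11 of the 22 muscle products were lower without overlap, as were 8.5% of all genes. The neuron and erythroid sums were higher without overlap. Among single genes the E12.5 groups did not overlap in 20%. Log2 differences above 0 were found in 0 Schwann cell, 1 connective tissue, 1 ectoderm, 0 cartilage, 3 neuron and 6 erythroid markers. By limma 2 cartilage markers were called between these groups, and 0 in any other marker list. Endothelial markers (5 of 5) summed to 100.2 to 107.9 and 106.3 to 115.8 RPKM, and somite and axial markers (3 of 5) to 52.8 to 64.7 and 56.6 to 68.2 RPKM. The part of these cell types in the differences of the muscle genes was not tested.

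Across the 13 libraries the genes whose levels were most like those of Pax3, by the Pearson r of log2 values, were Prtg (0.977), Igdcc3 (0.969), Shh (0.958), Fgf8 (0.955) and Fignl2 (0.954). Their means were lower at E12.5 in both genotypes. For Shh, at 0.604 and 1.86 RPKM in E12.5 controls and Sox9cKO, the listing fixed that direction, as for Pax3. Igdcc3 had 24.1 and 27.4 RPKM in E11.5 controls and Sox9null and 6.10 and 10.6 RPKM in E12.5 controls and Sox9cKO. Those most like Lbx1 were Acot11 (0.946), Hoxc11 (0.941), Myf5 (0.913), Kcnh2 (0.910) and Dusp4 (0.907), and those most like Myf5 were Ccnj (0.928), Nabp2 (0.927), Slc43a1 (0.925), Lmo1 (0.922) and Lbx1 (0.913). Those most like Myod1 were Hic1 (0.957), Vgll2 (0.956), Limk1 (0.949), Acta2 (0.949) and Pnmal2 (0.947). Those most like Myog were Kbtbd10 (0.989), Pamr1 (0.989), Tnnt1 (0.988), Acta2 (0.987) and Pnmal2 (0.986). Each r is a description over 13 libraries of 2 ages that share their normalization.

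By deviations from the group means, which take the age out, the closest gene was Hmgxb3 for both Pax3 (0.962) and Lbx1 (0.965), with Lbx1 and Pax3 standing next for each other (0.947). For Myf5 it was Elac2 (0.975), for Myod1 Engase (0.961) and for Myog Sipa1l2 (0.959). The group means of Hmgxb3 were 25.9 to 27.4 RPKM and those of Elac2 24.0 to 25.2 RPKM. Taking off the group means leaves the E11.5 library sets and sex in the deviations. Each closest gene was also picked as the highest r over many genes, so these values are a description.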

How the data were processed

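RNA-seq values for 13 mouse limb bud libraries came from 1 deposited table. CASAVA 1.8 and mm10 are named in the submitters' processing notes, with read counting, strand and library depth not given in the sources used here. In that table, per the file headers, the authors deposited a normalized RPKM for each gene and library. An adjusted p-value over the 4 groups, also as deposited by the authors, was used only as a description.

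Columns were assigned to groups and replicates by their headers. Genes were placed with GENCODE mouse release 21 (GRCm38, the assembly of mm10), which 12715 of 12880 identifiers matched. Values were analysed as log2(RPKM + 1), with the pseudocount 1, in limma 3.58.1 (R 4.3.3), with a mean for each group over the 13 libraries, and with trend and robust estimation of the variance. Such differences understate the change of low genes. Tests were two-sided and were checked on simulated data. Intervals cover 95%. With the labels' replicates as separate embryos, p-values measure the spread between embryos.

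The 5 genes and the gene lists were chosen with earlier results of these data known. Besides the 5, the text names the 3 genes of each list with the highest mean RPKM. Of the upstream list and the bHLH list it also names each gene called with age, while the called products are counted and not all named. It further names the 5 genes with the highest Pearson r to each of the 5 among genes of at least 1 RPKM (predicted genes left out). Met, Hgf, Acta1, Chrnb1, Tnnt2, Ryr1 and Casq2 were also named after their values were seen. Replicate numbers were not taken to pair the samples, for which the closing section gives the values. Alternatives varied the pseudocount (0.1, 0.5), a filter (at least 5 RPKM in 3 libraries), median centring, quantile normalization, the variance model, the libraries fitted, the replicate block, the library set, sex and each library left out in turn. Some Schwann cell markers are not reported here. Promoter windows are from RefSeq on GRCm38.p6.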

Additional observations from a re-analysis of the deposited data

Results flagged for a closer look

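In Sox9null, the 1 group large enough for the test, none of the 5 genes had a library far from the rest, and for none of the 5 did the effect of the mutation differ between the ages by the test of that difference. Among 38 groups of 4 libraries tested, for the 5 genes and the pathway genes that were called or among the 3 highest of their list, 2 held an outlying library by Dixon's test, and chance alone marks about 1 in 20. Both were in Sox9null 2. Chrnb1, a subunit of the muscle acetylcholine receptor, was at 3.312 RPKM there, with the nearest of the other Sox9null libraries at 2.558 RPKM. Tnnt2, the cardiac troponin T that early skeletal muscle also uses, was at 2.336 RPKM there, with the nearest at 1.18 RPKM. The same library had the highest Myod1 and Myog of the E11.5 libraries, at 19.4 and 19.9 RPKM.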

How the results depend on the processing

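Over the alternatives, 397 of 440 values for the 5 genes kept their direction and their side of the threshold, 28 lost a call, 1 gained a call and 14 changed sign; each change of sign was of a difference that was not called. Myog was called with age in every alternative. In mutants the Pax3 difference with age was not called with a pseudocount of 0.1 (-0.97) or 0.5 (-0.87), with the filter on low values (-0.77), after quantile normalization (-1.01) or with only the compared libraries (-0.77). The Myod1 difference was not called there after median centring (0.49), quantile normalization (0.48), without trend and robust estimation (0.56) or with only the compared libraries (0.56). With sex as a term, added after seeing the data, Lbx1 in controls was called at -0.76. The cause of these changes was not tested.

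Without each library in turn, Pax3 with age ran from -1.20 to -0.81 in controls and -1.0 to -0.51 in mutants, and Myod1 from 0.60 to 0.83 and 0.42 to 0.72. In mutants Lbx1 ran from -0.30 to 0.15 and Myf5 from -0.23 to 0.05. Sox9null minus control ran from -0.05 to 0.30 for Lbx1, -0.01 to 0.29 for Myod1 and -0.30 to 0.01 for Myog, and Sox9cKO minus control from -0.14 to 0.03 for Myod1. The difference of the effects ran from -0.02 to 0.48 for Pax3, -0.03 to 0.25 for Myf5 and -0.23 to 0.08 for Myog.

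The number of genes called of 12880 was 7 at E11.5, and 13 after median centring, 0 with only the compared libraries, 41 with the library set as a term and 2 to 8 without a library. At E12.5 it was 25, and 57 after quantile normalization, 105 with the library set as a term and 9 to 47 without a library. For the difference of the effects it was 4, and 2 with either lower pseudocount or the filter, and 1 to 11 without a library. With age it was 2794 in controls (7132 with the library set as a term, 1381 to 2520 without a library) and 2539 in mutants (924 with only the compared libraries, 6675 with the library set as a term, 708 to 2926 without a library).

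With the replicate number as a block, limma called 16 genes at E12.5 and 0 for the difference of the effects, and no call of the 5 genes changed (Myog with age 1.42 in controls, Pax3 -0.98). Of the pathway genes, Eya2 and Tcf12 lost their call with age in controls under the block and Eya4 gained one in mutants. The deviations of same-numbered controls and mutants had an r of -0.435, 0.635 and 0.441 at E11.5 and 0.169, 0.0266 and -0.117 at E12.5. Pairs of unlike number had an r from -0.725 to 0.74 at E11.5 and from -0.312 to 0.244 at E12.5. The same-numbered E11.5 libraries 2 share a library set, as do those numbered 3. The number was therefore not taken as a pairing.

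Depth was not given, so single values carry no counting error here. Pax3, at 1.22 to 4.24 RPKM at E12.5, was the lowest of the 5 genes. The groups hold 3 or 4 embryos, and the smallest p of the exact tests within E12.5 is 0.1. Age is bound to the genotype of controls and mutants, and in controls the sex of the embryos is also unevenly spread over the ages.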
